A study of Caenorhabditis elegans with 40 samples.

Results

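Aging at 20°C was followed in *npr-8(ok1439)* mutants by comparing the RNA of 5 libraries of 9-day-old adults with that of 5 libraries of young adults. These 10 libraries are 10 of the 40 of the series, and they were chosen by their labels for genotype, age and growth temperature. Both groups carry the *ok1439* deletion allele of *npr-8*, so the mutation does not differ between them, and both were grown on *E. coli* OP50. The young animals are called 0-day-old young adults in the sample labels and 1-day-old adults in the methods of the study, whereas both sources call the old animals 9-day-old. According to the methods, the strain was backcrossed with the N2 wild type, and adults kept until day 9 were washed daily and filtered with a 40-µm strainer. A further 10 libraries of wild-type (N2) animals of the same ages at 20°C, and 10 of *npr-8(ok1439)* animals of the same ages grown at 25°C, were used to ask where the age effect of the mutant at 20°C differed. The libraries were made from whole animals, and levels are relative to the whole library. Fewer cells of a type, less RNA per cell, or more RNA from other cells thus cannot be told apart as sources of a lower value.

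NPR-8 is a G protein-coupled receptor related to neuropeptide receptors, and the study places its expression in the amphid sensory neurons AWB, AWC and ASJ. It names the lower gut as a possible further site, where the signal could be background fluorescence. The cuticle of *C. elegans* is an extracellular matrix made by the epidermis, built largely of small collagens that are produced in waves before each molt. Some of these collagens shape the body or form the circular furrows of the cuticle, and the enzymes that modify, cut and cross-link them belong to the same program. An adult hermaphrodite makes a limited store of sperm before it switches to oocytes, the intestine supplies yolk proteins called vitellogenins to the growing oocytes, and fertilised eggs are held in the uterus for a time. Body wall and pharyngeal muscle, intestine, epidermis and neurons do not divide in the adult, and their transcripts make up most of the rest of an RNA sample from a whole animal.

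The 5 libraries of old mutants held 23960857 to 29152695 fragments on genes, and the 5 of young mutants held 24421582 to 30481895. Levels are given as CPM, the fragments of a gene relative to a library size scaled by the trimmed mean of M values (TMM), with the values of a group in the order of the authors' tables, which number the libraries of a group 0 to 4. Means are given ± SD with n = 5 libraries per group. No label says that the 5 libraries of a group came from separate cultures, so that p-values measure the spread between these libraries. The first principal component held 98.0% of the variance and separated the ages. Each library correlated with the mean of the others of its group at r of 0.993 or more across genes, which are not independent replicates.

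The young libraries were more spread out than the old ones, and the spread followed the cuticle and yolk genes. The summed level of the 6 annular furrow collagens was 14.2, 14.5, 14.96, 15.4 and 14.1 CPM in old mutants and 268, 461, 298, 708 and 431 CPM in young mutants. The summed level of the 6 vitellogenins was 25054, 25127, 25445, 24626 and 27543 CPM in old mutants and 23371, 15655, 22548, 9467 and 17929 CPM in young mutants. The young library numbered 3 was thus the highest of its group for furrow collagens and the lowest for vitellogenins, and the young libraries numbered 0 and 2 were the reverse. Cuticle genes did not move together, since the summed level of the collagens named *col-* went with the vitellogenins. Among young libraries it was lowest in the one numbered 3 (44842 CPM) and highest in those numbered 0 and 2 (61184 and 56471 CPM). Transcripts of molting enzymes followed the furrow collagens (3621 to 6487 CPM in young mutants), and those of oocytes and eggshell followed the vitellogenins (2984 to 4619 CPM), whereas the body wall muscle list varied little (19202 to 20483 CPM). Without the young library numbered 3, 3974 genes were higher and 5725 lower in the comparison of the ages described next, close to the counts with it, and single results that move with this library are given without it as well.

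**Figure D1:**
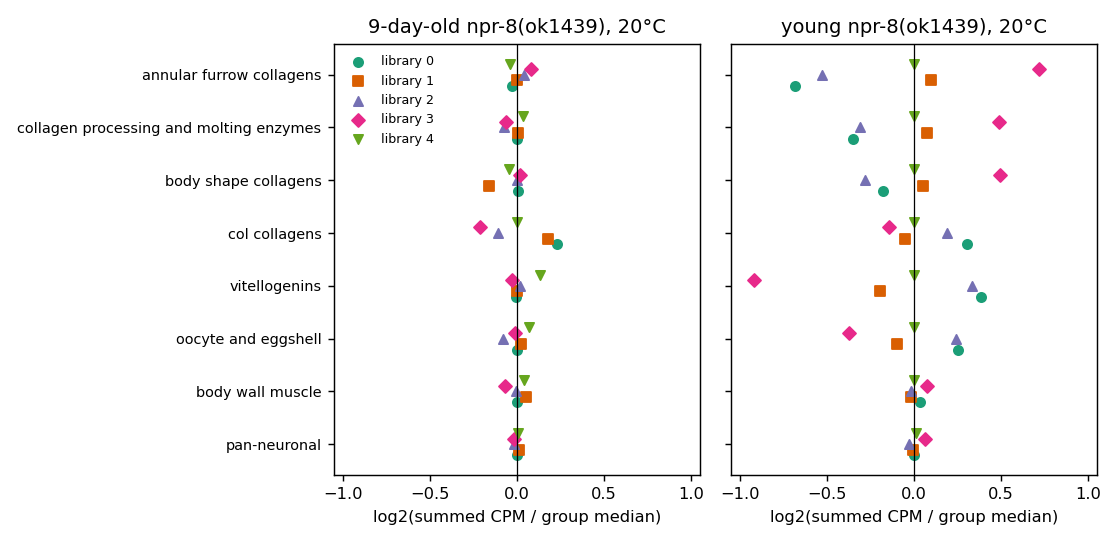
Summed CPM of 8 gene lists in each library, as the log2 ratio to the median of its group, for 9-day-old (left) and young (right) *npr-8(ok1439)* animals at 20°C. Among young libraries the one numbered 3 lies high for furrow collagens and molting enzymes and low for vitellogenins and oocyte genes. That library is also the lowest for the *col-* collagens. All 10 libraries lie close together for body wall muscle and pan-neuronal genes.

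*npr-8* itself was measured first, because the label of the groups rests on it. The gene (ce10, chromosome X, 7377273 to 7388160) read 2.45, 2.34, 1.90, 2.16 and 2.36 CPM in old mutants and 2.34, 2.38, 3.12, 2.73 and 2.82 CPM in young mutants, and the groups overlapped. The log2 fold change was -0.26 ± 0.12 (adjusted p = 0.056, or 0.043 without the young library numbered 3), and at that size the gene was not called. In wild-type animals at 20°C it averaged 1.61 ± 0.197 CPM when old and 2.49 ± 0.164 CPM when young, so that the counts over the whole gene do not show the deletion and do not check the genotype labels. The level was low at both ages and in both genotypes.

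Most of the transcriptome differed between the ages. Of 14535 genes tested with edgeR's quasi-likelihood test, 66.2% were called, with 4012 (27.6%) higher and 5617 (38.6%) lower in old than in young mutants. A gene was called where its Benjamini-Hochberg adjusted p was below 0.05 and its log2 fold change was 1 or more in either direction. The median log2 fold change over all genes tested was -0.26, and 214 genes rose and 603 fell by at least 5 on the log2 scale. With the size factors that DESeq2 uses (RLE) the median of all genes moved by 0.25 to -0.02. The sign of a log2 fold change under about 0.25 in size thus depends on which of these scalings is used. This gap is not a bound on the error of scaling, so larger changes may also depend on it. The values of the groups did not overlap for 12815 genes, or 88.2% of those tested. These 3 shares are the background for the counts of each gene list below. The age of the animals also coincides with the Cuffdiff run that produced the fragments, since old and young mutants were quantified in separate tables. Old wild-type libraries were quantified both with old mutants and with young wild type. A gene was kept only where these runs agreed on its fragments within 1 fragment or 1%. This kept 95.7% of genes with a mean of 10 fragments or more in old wild type. For the mutant libraries an effect of the run was not tested.

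The 3 lists of cuticle collagens had the lowest medians of the 43 gene lists described here. All 6 annular furrow collagens fell, with log2 fold changes of -7.15 to -2.99 and a median of -5.74. Of 14 other collagens that shape the body, 12 fell and 2 rose (median -10.08). Of the 156 genes named *col-*, 122 were tested, 105 fell, 7 rose and 10 were not called (median -6.84, or -6.72 with 1 gene that had no fragment in old mutants at its bound). Their summed level was 700.1, 677, 554, 515 and 598 CPM in old mutants, against 61184, 47925, 56471, 44842 and 49587 CPM in young mutants. Every old library was thus far below every young one.

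Of the collagens that the study examined by gene inactivation or mutation, 5 are described in full, and all 5 were far lower in old mutants. *rol-1*, a body-shape collagen whose mutants roll, is listed on chromosome II (11948522 to 12404254), an interval that spans other genes. It read 0.245, 0.1396, 0.194, 0.203 and 0.0414 CPM in old mutants and 1450.0, 1565, 1350.0, 1887 and 1533 CPM in young mutants, a log2 fold change of -13.14 ± 0.17 (adjusted p = 3.2e-15). *col-49* (chromosome I, 3137211 to 3138413) read 0.105, 0.279, 0.0777, 0.439 and 0.0414 CPM in old mutants, against 1035, 1148, 1043, 1393 and 1134 CPM in young mutants. Its log2 fold change of -12.48 ± 0.23 (adjusted p = 9.7e-13) corresponds to 27 fragments over the 5 old libraries and 152524 over the 5 young ones. *col-77* (chromosome II, 8358251 to 8359295) had 0.315, 0.174, 0.389, 0.946 and 0.207 CPM in old mutants and 2331, 2017, 2115, 2117 and 2018 CPM in young mutants, with a log2 fold change of -12.298 ± 0.21 (adjusted p = 4.5e-13). In these 3 genes the young libraries lay close together and every old library was under 1 CPM.

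The other 2 collagens kept more transcript with age and varied more among young animals. *col-139* (chromosome V, 4652896 to 4653944) read 2.56, 3.11, 2.14, 0.777 and 2.11 CPM in old mutants and 1864, 1108, 1664, 651 and 1192 CPM in young mutants, a log2 fold change of -9.25 ± 0.45 (adjusted p = 2.3e-08). *col-179* (chromosome X, 11201474 to 11202377) read 3.08, 4.05, 3.30, 2.50 and 2.28 CPM in old mutants and 197, 119.8, 179.3, 66.8 and 132 CPM in young mutants, a log2 fold change of -5.51 ± 0.36 (adjusted p = 2.7e-07). For both, the young library numbered 3 was the lowest of its group, in contrast to *rol-1* and *col-49*, where it was the highest. No old library reached the range of the young ones for any of the 5 collagens. The study also inactivated *col-7* and *col-88*, which fell as well. *col-7* had 0.0555 ± 0.0529 CPM in old mutants and 147 ± 57.6 CPM in young mutants, and *col-88* had 0.295 ± 0.232 CPM in old mutants and 700.4 ± 197 CPM in young mutants. Both were added after their values were seen.

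**Figure D2:**
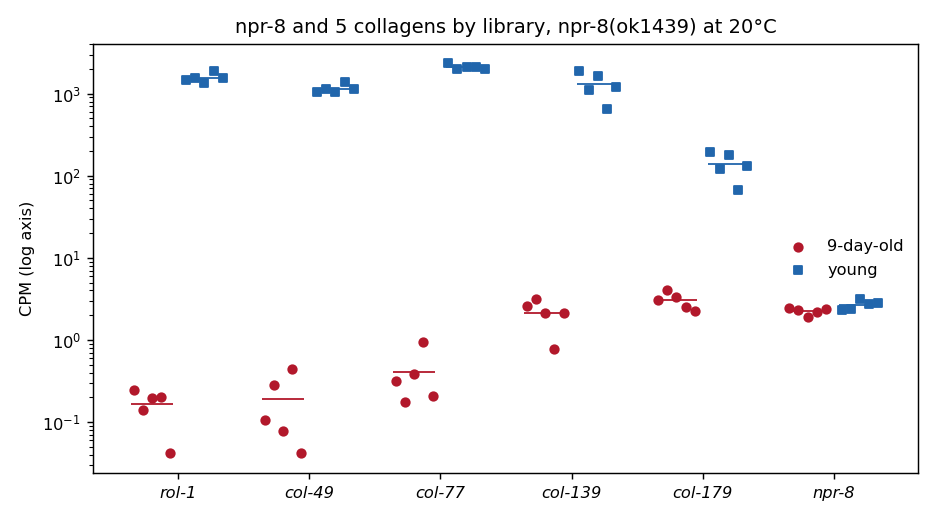
CPM of 5 collagens and *npr-8* in the 5 libraries of 9-day-old (circles) and the 5 of young (squares) *npr-8(ok1439)* animals at 20°C, on a log axis, with lines at the group means. Old libraries lie far below young ones for the 5 collagens (log2 fold changes of -13.14 to -5.51), while the *npr-8* values of the ages overlap.

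Among the furrow collagens, the largest fall was in *dpy-8* (chromosome X), with 0.350, 0.768, 0.816, 0.744 and 0.869 CPM in old mutants and 60.8, 108, 66.5, 166 and 101 CPM in young mutants. The smallest was in *dpy-10*, chosen here after its value was seen, with 8.19 ± 0.673 CPM in old mutants and 65.1 ± 26.6 CPM in young mutants. Without the young library numbered 3 the log2 fold change of *dpy-8* was -6.94, against -7.15 with it. The 2 body-shape collagens that rose were *dpy-14* and *dpy-17*. *dpy-14* read 21.3, 19.4, 21.8, 20.8 and 20.3 CPM in old mutants, against 0.460, 0.377, 0.402, 0.294 and 0.412 CPM in young mutants, a log2 fold change of 5.71 ± 0.10 (adjusted p = 1.3e-16), and *dpy-17*, named after its value was seen, had 33.05 ± 1.75 CPM in old mutants and 2.61 ± 0.247 CPM in young mutants. The listed interval of *dpy-14* on chromosome I is 381925 bases long and is shared by *syp-4* and *maco-1*, 2 genes that also rose. Among the *col-* genes the largest rise among those with a mean of at least 1 CPM was in *col-158* (5.18 ± 0.473 CPM in old mutants, 0.314 ± 0.105 CPM in young mutants), and the most fragments were on *col-73* (0.948 ± 0.281 CPM in old mutants, 3437 ± 385 CPM in young mutants).

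The tested genes that process collagens fell as well. All 18 tested members of this list, out of 20 listed, fell (median -3.45). With RLE size factors 16 of the 18 were called lower, and 17 by library size alone. The other 2 listed genes could not be tied to transcripts and were not tested. Among genes that could not be tied is *bli-4*, a protease that cuts collagens. Its FPKM from the authors, given below without a test, was higher in the old group than in the young libraries. *mlt-9*, required for molting, read 0.980, 0.977, 0.971, 0.980 and 1.32 CPM in old mutants and 94.2, 166, 104.3, 240.1 and 155 CPM in young mutants, with its highest young value in library 3. *pdi-2*, a protein disulfide isomerase and a subunit of the enzyme that hydroxylates collagen prolines, had 262 ± 16.3 CPM in old mutants, against 1938 ± 382 CPM in young mutants, a log2 fold change of -2.89 ± 0.13 (adjusted p = 3.2e-09). Of 62 hedgehog-related and Patched-related genes tested, 53 fell and 6 rose (median -3.46). The fall was largest in *grl-5*, a ground-like gene (0.0350, 0.0349, 0.0389, 0.203 and 0 CPM in old mutants, 107, 158, 106, 242 and 139.6 CPM in young mutants). *ptc-1*, a Patched homolog needed for cytokinesis in the germline, rose to 774 ± 25.3 CPM in old mutants, against 271 ± 18.95 CPM in young mutants. Of 34 cuticlin and ZP-domain genes tested, 24 fell, 7 were not called and 3 rose, namely *cutl-2*, *cutl-13* and *cutl-16*. The counts depended on scaling, with 17 lower and 5 higher under RLE size factors or DESeq2. *cut-2*, which codes for a cuticlin, had 0.622 ± 0.215 CPM in old mutants and 246 ± 39.5 CPM in young mutants.

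The *abu* and *pqn* genes, whose products are rich in glutamine and asparagine, were split. Of 58 tested, 31 fell, 9 rose and 18 were not called. *abu-6* had 1 fragment in the 5 old libraries and 3782 in the 5 young ones, so that it was 3882-fold lower in old mutants, with a 95% exact interval of 696 to 153360.0, which like all such intervals covers counting error only. This gene and close copies of it (*abu-7* and *F41E6.11* among them) may share fragments. In contrast, *pqn-59* read 1047, 1038, 999.6, 1021 and 1116 CPM in old mutants and 586, 513, 569.5, 536 and 570.0 CPM in young mutants, just under the fold threshold (0.91 ± 0.04).

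**Figure D3:**
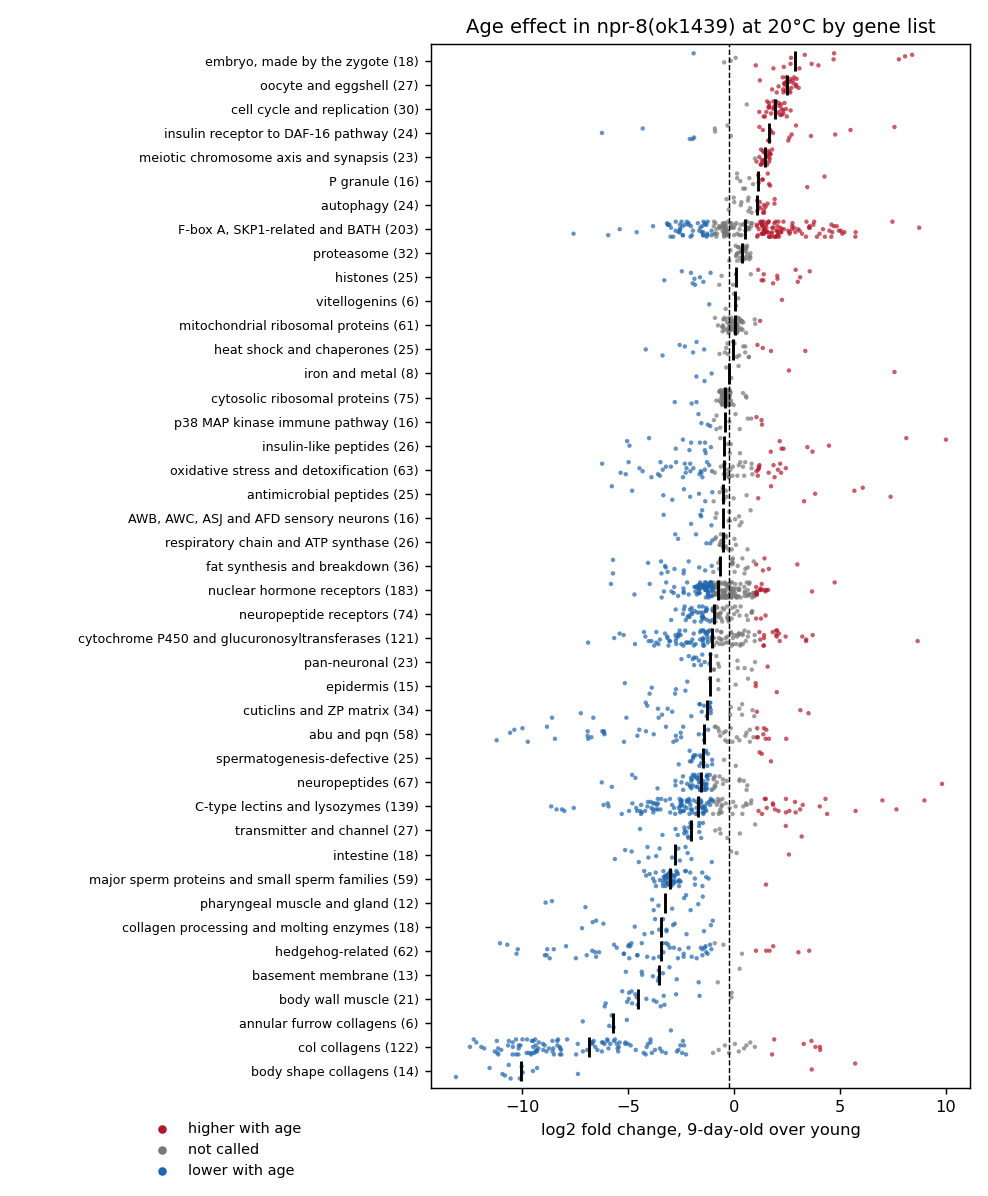
Log2 fold change of 9-day-old over young *npr-8(ok1439)* animals at 20°C for the tested members of 43 gene lists (number in brackets), with a bar at the median of each list and a dashed line at the median of all genes tested, -0.26. Collagen, muscle and sperm lists lie on the left, and oocyte, cell cycle and meiotic lists on the right.

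Muscle transcripts fell almost as a whole. Of 21 body wall muscle genes tested, 19 fell (median -4.56), and the 2 not called were *unc-45*, a myosin chaperone, and *unc-60*, an actin depolymerising factor. *unc-54*, the major myosin heavy chain of body wall muscle, read 94.4, 106, 101, 84.9 and 102 CPM in old mutants and 6601, 6505, 6241, 6881 and 6504 CPM in young mutants, a log2 fold change of -6.07 ± 0.07 (adjusted p = 7.4e-19). *tnt-2*, a troponin T, had 13.96, 13.2, 12.9, 10.1 and 12.8 CPM in old mutants and 878, 832, 869.5, 899 and 879.9 CPM in young mutants. The values of each group were close together and far from those of the other. All 12 genes of pharyngeal muscle and gland fell (median -3.25). *myo-2*, the pharyngeal myosin heavy chain, had 15.7 ± 1.75 CPM in old mutants, against 187 ± 18.9 CPM in young mutants. *phat-4*, a gland gene, read 0.175, 0.105, 0.117, 0.101 and 0.0828 CPM in old mutants and 67.9, 56.1, 56.98, 57.6 and 52.7 CPM in young mutants.

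Basement membrane genes fell in 11 of 13 cases (median -3.56), and *cle-1* and *lam-3* were not called. *let-2*, a chain of type IV collagen, read 152.2, 140.1, 142, 135 and 149 CPM in old mutants, against 2913, 2805, 2902, 3064 and 2923 CPM in young mutants, a log2 fold change of -4.35 ± 0.05 (adjusted p = 4.7e-19). *unc-52*, the perlecan that anchors muscle, averaged 27.9 ± 0.9498 CPM in old mutants and 966 ± 67.1 CPM in young mutants.

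Oocyte and eggshell transcripts rose in all 27 genes tested, with a median of 2.51 and a range of 1.21 to 3.04. *cpg-1* and *cpg-2* code for chondroitin proteoglycans of the eggshell. *cpg-1* read 2192, 2052, 1879, 2022 and 2358 CPM in old mutants and 312, 219, 311, 174 and 256 CPM in young mutants, a log2 fold change of 3.04 ± 0.17 (adjusted p = 5.5e-08), and *cpg-2* averaged 3158 ± 159 CPM in old mutants, against 443 ± 65.2 CPM in young mutants. The lowest young value of *cpg-1* was again in library 3, and no young library came near the old ones. The summed level of the list was 20862 to 23196 CPM in old mutants and 2984 to 4619 CPM in young mutants.

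Cell cycle and meiotic genes rose with them. Of 30 cell cycle and replication genes, 29 rose and only *cyb-1*, a B-type cyclin, was not called (median 1.94). *cyb-3*, a cyclin of the dividing germline and embryo, read 664, 705, 653, 687 and 689.5 CPM in old mutants and 140.0, 111, 141, 94.8 and 120.5 CPM in young mutants, a log2 fold change of 2.48 ± 0.10 (adjusted p = 3.6e-10), and the largest rise was in *cyb-2.1* (2.66). Of 23 genes of the meiotic chromosome axis and synapsis, 22 rose and *lab-1* was just under the threshold (median 1.44). *rec-8*, the meiotic cohesin, had 191 ± 2.45 CPM in old mutants, against 55.04 ± 2.41 CPM in young mutants, and *syp-4*, of the synaptonemal complex, had 263 ± 8.53 CPM in old mutants, against 106 ± 4.51 CPM in young mutants. P granules are RNA-protein bodies of the germline. Of 16 P granule genes, 9 rose and 7 were not called (median 1.14). The rise was large in *meg-2*, with 65.0, 65.1, 61.9, 63.3 and 69.2 CPM in old mutants and 4.22, 3.17, 4.53, 1.64 and 3.16 CPM in young mutants, and smaller in the Argonaute gene *wago-1* (1.33 ± 0.05).

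Genes that the zygote transcribes were also higher in old animals. Of 18 tested, 14 rose, 1 fell and 3 were not called (median 2.89). *vet-6*, one of the earliest genes expressed in the embryo, read 6.16, 6.98, 6.84, 5.64 and 7.74 CPM in old mutants and 0, 0, 0, 0.0420 and 0.0343 CPM in young mutants, or 906 fragments against 2. The gene that fell was *hlh-1*, the MyoD homolog of body wall muscle (1.503 ± 0.315 CPM in old mutants, 5.69 ± 0.232 CPM in young mutants). *lin-26*, needed in the embryonic epidermis, was called higher at 1.02 ± 0.04, and leaving out the old library numbered 0 or any one of the 5 young libraries took it under the fold threshold (0.97 to 0.99). The summed level of the list was 369.6 to 389 CPM in old mutants, against 138 to 150.4 CPM in young mutants. The part of embryos in the rise of oocyte, cell cycle and P granule transcripts was not tested.

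Yolk genes did not move as a group. Of the 6 vitellogenins, 1 rose, 1 fell and 4 were not called (median 0.04). *vit-5* read 7828, 8255, 8402, 8209 and 9058 CPM in old mutants and 2248, 1524, 2278, 886 and 1812 CPM in young mutants, a log2 fold change of 2.25 ± 0.24 (adjusted p = 1.2e-05). *vit-6*, in contrast, read 8865, 8584, 8776, 8393 and 9520.0 CPM in old mutants and 10960.0, 7250.0, 10530.0, 4472 and 8257 CPM in young mutants, and the old values lay inside the young range (0.09 ± 0.22, adjusted p = 0.7). Without the young library numbered 3 the log2 fold change of *vit-6* was -0.11, and that of *vit-5* was 2.04. *vit-3* fell by little more than the threshold (-1.18 ± 0.16), and with RLE size factors (-0.93) it was no longer called. Members of this family are close copies, and their fragments are uncertain.

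Sperm transcripts fell but remained measurable. Of 59 major sperm protein and small sperm family genes tested, 58 fell and 1 rose (median -3.01), and many of these are near-identical copies whose fragments may be shared. *msp-152* read 5.36, 5.97, 5.55, 6.29 and 6.002 CPM in old mutants, against 102, 94.4, 125, 112.2 and 121 CPM in young mutants, a log2 fold change of -4.25 ± 0.09 (adjusted p = 2.0e-15). *ssq-4* had 42.5, 47.7, 47.1, 50.1 and 53.0 CPM in old mutants and 385, 386, 387, 365 and 339.8 CPM in young mutants. The gene that rose was *ssp-37*, at 3.02 ± 0.534 CPM in old mutants and 1.07 ± 0.430 CPM in young mutants. Of 25 genes named for spermatogenesis or fertilisation defects, 20 fell, 3 rose and 2 were not called (median -1.47). *spe-12*, needed to activate spermatids, read 1.4, 1.501, 1.44, 1.89 and 1.41 CPM in old mutants and 9.70, 9.32, 8.68, 9.36 and 10.2 CPM in young mutants, and *spe-15*, an unconventional myosin, had 83.4 ± 1.43 CPM in old mutants, against 197 ± 9.21 CPM in young mutants. The 3 that rose were *try-5*, a protease that activates sperm and is made in males, with 1.47, 1.501, 1.48, 1.28 and 1.61 CPM in old mutants and 0.460, 0.453, 0.369, 0.588 and 0.343 CPM in young mutants, and *spe-5* and *spe-44*, named after their values were seen (1.30 and 1.20 on the log2 scale).

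Histone genes went both ways, with 11 of 25 higher and 9 lower. The libraries select polyadenylated RNA, which misses most replication-dependent histone transcripts. *his-72*, a replacement H3 variant, had 184 ± 13.3 CPM in old mutants, against 70.1 ± 2.67 CPM in young mutants.

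Most intestinal transcripts fell as well, and epidermal ones were mixed. Of 18 intestinal genes, 15 fell, 2 were not called (*cpr-1* and *mtl-2*) and 1 rose (median -2.78). *pho-1*, an intestinal acid phosphatase, read 3.08, 4.05, 3.50, 1.99 and 2.81 CPM in old mutants and 152.2, 157, 154, 148 and 155 CPM in young mutants, a log2 fold change of -5.63 ± 0.11 (adjusted p = 6.3e-14). *asp-1*, an aspartyl protease of the gut, had 372 ± 34.2 CPM in old mutants, against 2839 ± 337 CPM in young mutants. The gene that rose was *ftn-1*, a ferritin that stores iron, with 21.3, 19.8, 19.9, 20.04 and 18.1 CPM in old mutants and 2.38, 3.51, 3.05, 4.03 and 3.54 CPM in young mutants. The other ferritin, *ftn-2*, fell to 73.9 ± 4.71 CPM in old mutants, against 254 ± 16.8 CPM in young mutants, so the 2 ferritins moved in opposite directions. Of 15 epidermal genes, 8 fell, 3 rose and 4 were not called (median -1.15). *mup-4*, of the fibrous organelles that link muscle to cuticle, read 43.8, 44.0, 43.8, 42.8 and 44.2 CPM in old mutants and 679.7, 703, 696, 707 and 693 CPM in young mutants, and *bus-8*, a glycosyltransferase of the surface, had 2.39 ± 0.448 CPM in old mutants, against 85.6 ± 22.4 CPM in young mutants. The 3 that rose were *lin-26*, *lin-41* and *nhr-23*. Only 1 was called without the young library numbered 0, 1, 2 or 4, and 2 without the young library numbered 3 or the old library numbered 0. In each of these *lin-41*, also a regulator of oocytes, was still called (581 ± 27.3 CPM in old mutants, 144 ± 24.5 CPM in young mutants).

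Pan-neuronal genes fell in about as many cases as not. Of 23 pan-neuronal genes, 12 fell, 1 rose and 10 were not called (median -1.12). *sng-1*, the synaptogyrin of synaptic vesicles, read 0.595, 0.768, 0.777, 0.507 and 0.538 CPM in old mutants and 3.80, 3.85, 3.32, 3.53 and 3.50 CPM in young mutants, a log2 fold change of -2.49 ± 0.14 (adjusted p = 9.3e-11). *maco-1*, a macoilin of neuronal endoplasmic reticulum, was the one that rose, or 1 of 2 without the old library numbered 0 (211 ± 5.87 CPM in old mutants, 70.7 ± 1.86 CPM in young mutants). The summed level of the list was 1232 to 1257 CPM in old mutants and 1290.5 to 1374 CPM in young mutants. This sum is weighted toward members with many fragments and does not follow the median. The member with most fragments, *tbb-1*, changed little (0.13 on the log2 scale without the young library numbered 3). For the sensory neurons AWB, AWC, ASJ and AFD, 6 of 16 tested genes fell and 10 were not called (median -0.55). *ssu-1*, a sulfotransferase of ASJ, had 0.14, 0.105, 0.117, 0.203 and 0 CPM in old mutants and 0.836, 1.36, 1.17, 1.18 and 1.51 CPM in young mutants, which is a low level at either age. *gcy-12*, a receptor guanylyl cyclase, had 53.5 ± 3.34 CPM in old mutants, against 152.4 ± 3.41 CPM in young mutants.

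Of 27 genes for transmitters and their channels, 19 fell, 6 were not called and 2 rose (median -2.03). The 2 that rose code for successive enzymes of tyramine and octopamine synthesis. *tdc-1*, the tyrosine decarboxylase, read 288, 317, 312, 323 and 309 CPM in old mutants and 59.4, 56.0, 59.5, 54.2 and 56.7 CPM in young mutants, a log2 fold change of 2.44 ± 0.04 (adjusted p = 6.1e-17). *tbh-1*, the tyramine beta-hydroxylase, had 269, 271, 276, 285 and 263 CPM in old mutants and 37.9, 27.4, 39.5, 14.99 and 29.6 CPM in young mutants, with its lowest young value in library 3. Both are also expressed in the gonadal sheath. Without that library *tbh-1* still rose, by 2.98 on the log2 scale. The largest fall was in *acr-2*, a subunit of an acetylcholine receptor of motor neurons (0.193 ± 0.0511 CPM in old mutants, 4.25 ± 0.757 CPM in young mutants).

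Neuropeptide genes fell in 50 of 67 cases, 16 were not called and 1 rose (median -1.57). *nlp-24*, a neuropeptide-like protein gene, read 0.875, 1.12, 1.13, 1.048 and 0.786 CPM in old mutants and 98.3, 60.7, 96.6, 53.3 and 71.7 CPM in young mutants. *nlp-39*, the one that rose, had 25.8, 24.1, 24.9, 24.2 and 23.3 CPM in old mutants and 0.0836, 0, 0.0335, 0 and 0 CPM in young mutants, or 3350 fragments against 3. It was 1088-fold higher in old mutants, with a counting interval of 372 to 5278. Of 74 neuropeptide receptors, 35 fell, 3 rose (*egl-6*, *npr-11* and *dmsr-4*) and 36 were not called. *npr-5*, another neuropeptide receptor gene, fell to 1.71 ± 0.263 CPM in old mutants, against 13.4 ± 0.390 CPM in young mutants (-2.97 ± 0.10). The insulin-like peptides were split, with 9 of 26 higher and 12 lower. *ins-19* had 648 fragments in the old libraries and none in the young ones, which makes it at least 41.9-fold higher in old mutants, against a floor of 3 fragments in the median young library. Its listed interval also spans other genes.

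The list of the insulin receptor to DAF-16 pathway had 15 of 24 genes higher, 5 lower and 4 not called (median 1.63). It also counts readouts of DAF-16 such as *mtl-1*, so these counts are not of the signalling genes alone. DAF-16 is the FOXO transcription factor that this pathway holds back. *mtl-1*, a metallothionein used as a readout of DAF-16, had 31.9, 31.9, 27.7, 28.9 and 26.3 CPM in old mutants and 0.292, 0.113, 0.268, 0 and 0.0687 CPM in young mutants (7.57 ± 0.22). Another common readout, *sod-3*, was not called (0.847 ± 0.178 CPM in old mutants, 1.596 ± 0.273 CPM in young mutants), and it is named here after its value was seen. The 5 that fell were *dod-17*, *dod-22*, *dod-24*, *dao-3* and *sgk-1*, and of these *dod-17* had 0.350, 0.768, 0.427, 0.270 and 0.455 CPM in old mutants and 41.0, 33.7, 34.5, 29.5 and 34.99 CPM in young mutants. Transcripts of *daf-16* itself could not be tied to the gene, and the authors' FPKM was 132 for the old group and 88.7 ± 3.76 in the 5 young libraries.

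Heat shock and chaperone genes had no common direction, with 4 of 25 higher, 7 lower and 14 not called, and their median (-0.04) changed sign under other scalings. *sip-1*, a small heat shock protein of oocytes and embryos, rose to 1511, 1347, 1208, 1278 and 1252 CPM in old mutants, against 174, 120.3, 142, 90.4 and 115 CPM in young mutants. *hsp-12.1* fell (0.280 ± 0.122 CPM in old mutants, 5.11 ± 0.696 CPM in young mutants), and *daf-21*, which codes for HSP90, was not called at 0.43 ± 0.04. The other 3 that rose were *hsf-1*, *hsp-12.6* and *ire-1*. Among genes of oxidative stress and detoxification, 13 of 63 rose and 29 fell. *msra-1*, a methionine sulfoxide reductase, read 14.8, 14, 14.6, 12.8 and 11.2 CPM in old mutants and 1105, 980.0, 1114, 847 and 1032 CPM in young mutants, and *sod-5*, a superoxide dismutase, had 1.57 ± 0.282 CPM in old mutants, against 0.291 ± 0.122 CPM in young mutants. Of 121 cytochrome P450 and glucuronosyltransferase genes, 65 fell and 19 rose (median -1.06), and the ends of the range were *cyp-13A4* (-6.90) and *cyp-14A3*. *cyp-14A3* read 12.07, 11.5, 11.5, 11.8 and 8.15 CPM in old mutants and 0, 0.0377, 0.0335, 0 and 0.0343 CPM in young mutants.

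Immune genes changed in both directions. Among tested C-type lectin and lysozyme genes, 92 fell, 23 rose and 24 were not called (median -1.72). *clec-266* read 54.04, 54.2, 45.4, 55.3 and 49.8 CPM in old mutants and 0.1254, 0.0755, 0.101, 0.0840 and 0.103 CPM in young mutants, a log2 fold change of 8.98 ± 0.12 (adjusted p = 6.9e-18). *clec-63*, the member with most fragments, had 165, 178.8, 166, 162 and 171 CPM in old mutants, against 1323, 1128, 1309, 1083 and 1192 CPM in young mutants. *clec-242* had no fragment in the old libraries and 245 in the young ones, so it was at least 17.5-fold lower in old mutants. Antimicrobial peptides were split, with 7 of 25 higher and 9 lower. *nlp-33*, an epidermal peptide induced by fungal infection, read 3.71, 3.56, 5.09, 5.41 and 5.22 CPM in old mutants and 159, 193, 301, 294 and 309.7 CPM in young mutants. *spp-5*, a saposin-like antibacterial protein, had 155 ± 9.52 CPM in old mutants and 399 ± 29.2 CPM in young mutants. The p38 MAP kinase pathway changed in 7 of 16 genes, of which *skn-1*, *dkf-2* and *irg-2* rose and *irg-1*, *irg-3*, *snf-12* and *tpa-1* fell. The kinase gene *pmk-1*, named after its value was seen, had 23.2 ± 1.01 CPM in old mutants and 27.1 ± 1.44 CPM in young mutants and was not called.

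Lipid metabolism genes fell in 15 of 36 cases and rose in 5 (median -0.69). *fat-7*, a stearoyl-CoA desaturase, read 1.68, 2.16, 1.79, 1.55 and 1.90 CPM in old mutants and 89.9, 92.5, 95.3, 109 and 93.6 CPM in young mutants, a log2 fold change of -5.72 ± 0.08 (adjusted p = 1.5e-17). *acdh-1*, an acyl-CoA dehydrogenase of propionate breakdown, had 92.3, 84.5, 88.0, 80.8 and 86.3 CPM in old mutants, against 4453, 4607, 4636, 4503 and 4616 CPM in young mutants. *lipl-1*, a lysosomal lipase, rose, with 42.8, 46.4, 39.8, 44.8 and 37.05 CPM in old mutants and a wide spread of 1.42, 7.36, 1.71, 11.7 and 4.84 CPM in young mutants. The other 4 that rose were *atgl-1*, *cpt-1*, *lipl-2* and *fat-5*. Nuclear hormone receptors fell in 77 of 183 cases and rose in 16. *nhr-114*, which acts in the intestine, had 5.14, 5.83, 5.75, 4.70 and 5.75 CPM in old mutants and 320.5, 309.9, 304, 303 and 292 CPM in young mutants.

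The ribosomal protein, respiratory chain and proteasome lists changed little by the fold threshold. Of 75 cytosolic ribosomal protein genes, 3 fell (median -0.42), and their summed level was 72260.1 to 77831 CPM in old mutants and 95695 to 105721 CPM in young mutants. The 3 that fell were *rpl-42*, *rpl-25.1* and *rpl-11.2*. Of 61 mitochondrial ribosomal protein genes, only *mrpl-18* was called (1.23 ± 0.05), and 2 were without the old library numbered 1, 2 or 3. Of 26 respiratory chain and ATP synthase genes, 6 fell (median -0.55), and *atp-2*, the beta subunit of the ATP synthase, was at the threshold with 1329 ± 42.2 CPM in old mutants and 2712 ± 84.6 CPM in young mutants. None of 32 proteasome genes was called by edgeR at this fold (median 0.38), although all 32 had an unadjusted p under 0.05, and 2 were called as higher by DESeq2. *rpn-2*, a proteasome subunit, read 659, 686, 658, 703 and 691 CPM in old mutants and 396, 399, 388, 408 and 402 CPM in young mutants, groups that did not overlap. Autophagy genes rose in 13 of 24 cases (median 1.09). *epg-6*, an autophagy gene of the WIPI family, had 134, 142, 135, 141 and 140.1 CPM in old mutants, against 38.5, 37.1, 39.4, 32.6 and 36.1 CPM in young mutants, and *lgg-1*, the worm homolog of Atg8, was under the threshold at 0.65 ± 0.07. Of 203 F-box A, Skp1-related and BATH genes, 91 rose and 49 fell (median 0.50). Of 8 genes of iron and metal handling, *ftn-1* and *mtl-1* rose and *ftn-2*, *smf-3* and *cdr-1* fell.

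For several lists the share that fell was near the 38.6% of all genes, as for the sensory neurons (37.5%), lipid metabolism (41.7%), nuclear hormone receptors (42.1%), antimicrobial peptides (36%) and histones (36%). The list of iron and metal handling (37.5%) was near it too. The shares for genes of oxidative stress (46.0%), insulin-like peptides (46.2%) and neuropeptide receptors (47.3%) were not far above it. On the higher side, antimicrobial peptides (28%), iron and metal handling (25%) and insulin-like peptides (34.6%) were near or not far above the 27.6% of all genes. The p38 pathway was under both shares, with 18.75% higher and 25% lower. So was the list of heat shock and chaperone genes, with 16% higher and 28% lower. Such counts are no result about these lists.

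The largest changes among genes with at least 10 CPM in 1 group and an interval of at most 100000 bases were in collagens and genes of no named role on the lower side, and in genes of other families on the higher side. The 6 largest falls were *col-49*, *K02E11.10*, *dao-4*, *col-77*, *col-138* and *bli-6*, at -12.48 to -12.06 on the log2 scale. *bli-6*, a collagen whose mutants blister, read 0.315, 0.174, 0.583, 0.270 and 0.207 CPM in old mutants and 1261, 1299, 1222, 1594 and 1299 CPM in young mutants, and *dao-4* had 0, 0.0349, 0.117, 0 and 0.0414 CPM in old mutants and 151, 226, 162, 305 and 234 CPM in young mutants. The 6 largest rises were *C54C8.12*, *nlp-39*, *clec-266*, *cyp-14A3*, *clec-190* and *mtl-1*. *C54C8.12* had 1855 fragments in the old libraries (9.28, 14.4, 14.96, 15.1 and 14.3 CPM) and none in the young ones, so it was at least 120.2-fold higher in old mutants. *clec-190* read 42.5, 43.5, 44.9, 45.7 and 41.2 CPM in old mutants and 0.418, 0.189, 0.168, 0.0420 and 0.240 CPM in young mutants. Of the genes named in the text, *rol-1*, *dpy-14*, *vet-6*, *syp-4*, *spe-12*, *spe-15*, *his-72*, *maco-1*, *ins-19*, *dod-17* and *rpl-42* have listed intervals over 100000 bases, so their values may include fragments of genes inside them.

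The age effect of the mutant differed from that of wild-type animals at the same temperature in 3490 of 14986 genes tested (23.3%). The test was the interaction of age and genotype over 20 libraries, given as the age effect in *npr-8(ok1439)* minus that in wild type on the log2 scale. It was higher in 1700 genes (11.3%) and lower in 1790 (11.9%). Sperm genes were higher far more often than this. Of the 25 genes named for spermatogenesis defects, 24 were higher. The median age effect of the list was -1.47 in the mutant and -5.43 in wild type. Of the 59 major sperm protein and small sperm family genes, 53 were higher and 1 lower, with medians of -3.01 in the mutant and -5.76 in wild type.

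For *spe-15* the level was 84.0 ± 1.48 CPM in old and 198 ± 9.402 CPM in young mutants, against 18.5 ± 0.860 CPM in old and 192 ± 10.7 CPM in young wild-type animals, an interaction of 2.13 ± 0.06 (adjusted p = 1.3e-17). The young groups were thus close, and the old groups were not. *msp-152* had 5.88 ± 0.406 CPM in old and 111.6 ± 13.1 CPM in young mutants, against 1.23 ± 0.841 CPM in old and 69.99 ± 6.87 CPM in young wild-type animals. The 5 largest positive interactions under the naming rule were in *K09C6.2*, *Y51H4A.22*, *AC7.3*, *C45G9.4* and *Y1A5A.1*, at 7.64 to 6.56. *Y1A5A.1* had 9.29 ± 1.06 CPM in old and 16.6 ± 1.495 CPM in young mutants, against 0.214 ± 0.100 CPM in old and 37.01 ± 4.22 CPM in young wild-type animals (6.56 ± 0.21, adjusted p = 4.5e-17). Over the 5 genes the means were 1.87 to 9.29 CPM in old mutants and 0.0146 to 0.214 CPM in old wild-type animals.

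**Figure D4:**
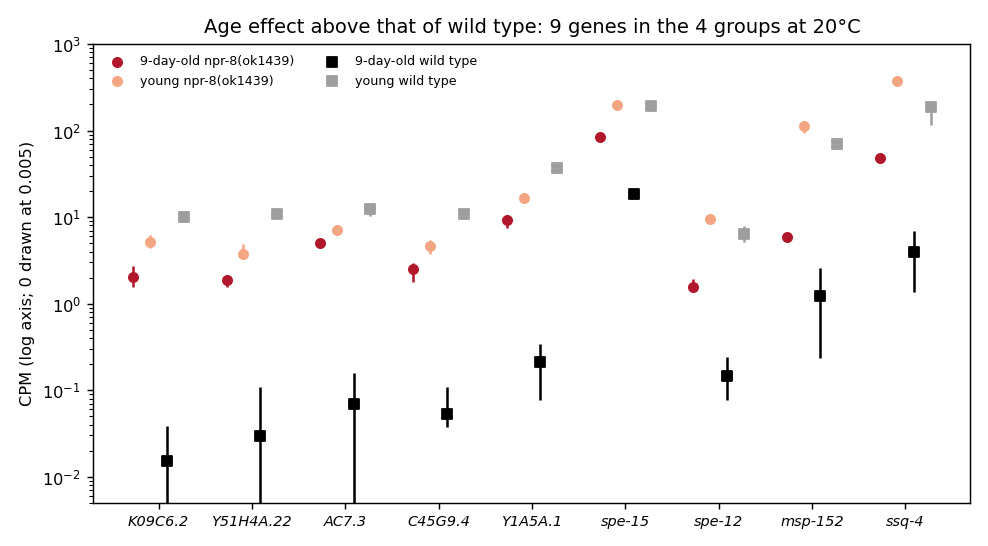
CPM on a log axis in 9-day-old and young *npr-8(ok1439)* animals (circles) and in 9-day-old and young wild-type animals (squares) at 20°C, as the mean of 5 libraries with a line from the lowest to the highest library, for the 5 genes with the largest positive interaction and 4 sperm genes. In all 9 genes the black squares of old wild type lie lowest.

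The lower side of the interaction held cuticle, oocyte and yolk genes. All 6 furrow collagens were lower, with a median age effect of -5.74 in the mutant and -1.81 in wild type, as were 13 of 14 other body-shape collagens and 68 of 121 *col-* genes (4 were higher). *dpy-8* had 0.715 ± 0.209 CPM in old and 101 ± 42.7 CPM in young mutants, against 1.76 ± 0.576 CPM in old and 14.7 ± 4.26 CPM in young wild-type animals (-4.09 ± 0.53, adjusted p = 2.8e-06). *col-179* had 3.06 ± 0.696 CPM in old and 139.8 ± 51.7 CPM in young mutants, against 28.7 ± 9.11 CPM in old and 86.0 ± 49.1 CPM in young wild-type animals (-3.92 ± 0.62, adjusted p = 3.9e-05). For *col-49* the 2 ages differed by much in both genotypes, and the interaction was -2.56 ± 0.59 (adjusted p = 0.0013). Without the young library numbered 3 all 6 furrow collagens and 13 body-shape collagens were still lower.

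Oocyte and eggshell genes were lower in 15 of 27 cases, with medians of 2.51 in the mutant and 3.59 in wild type. The old levels of *cpg-2* were close in the genotypes, with 3183 ± 164 CPM in old and 446 ± 64.8 CPM in young mutants, against 3012 ± 166 CPM in old and 177 ± 25.06 CPM in young wild-type animals. Of the 6 vitellogenins 5 were lower (4 to 6 when 1 library was left out), and the medians were 0.04 in the mutant and 2.32 in wild type. *vit-3* had 162 ± 19.4 CPM in old and 366 ± 75.8 CPM in young mutants, against 1099.6 ± 347 CPM in old and 346 ± 176 CPM in young wild-type animals (-2.84 ± 0.48, adjusted p = 8.0e-05), groups that were close when young and apart when old. Of 25 antimicrobial peptides 14 were lower. The 5 most negative interactions were in *skr-14*, *skr-7*, *fbxc-28*, *fkh-4* and *fkh-3*, at -6.90 to -5.54, genes with higher means in old than in young animals of both genotypes. Their young wild-type libraries are at or near 0, so the size of these values depends on the prior count of the fit. *skr-7*, a Skp1-related gene, had 18.6 ± 0.900 CPM in old and 0.498 ± 0.209 CPM in young mutants, against 66.9 ± 2.77 CPM in old and 0.0157 ± 0.0216 CPM in young wild-type animals. Body wall muscle genes were lower in 7 of 21 cases.

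The age effect of the mutant at 20°C was also set against that of the same mutant at 25°C, with the same 10 mutant libraries as before. The age effect at 20°C minus that at 25°C was called in 39.8% of 14863 genes, higher in 2579 (17.4%) and lower in 3331 (22.4%). The split depended on scaling, with 1897 higher and 4078 lower by library size alone, and 1775 higher and 4194 lower without the old library numbered 4 at 20°C. By library size alone the median of all genes moved from 0.09 to -0.12. Among young libraries at 25°C the one numbered 0 stood apart, with 601 CPM of *unc-54*, against 2531 to 3891 CPM in the other 4. Without it 2593 genes were higher and 3286 lower. All 6 furrow collagens and 12 of 14 other body-shape collagens were lower, as were 78 of 122 *col-* genes, while 16 *col-* genes were higher. The median age effect of the furrow collagens was -5.78 at 20°C and -0.05 at 25°C. *rol-1* had 0.159 ± 0.0749 CPM in old and 1549.6 ± 178.9 CPM in young mutants at 20°C, against 1.78 ± 1.65 CPM in old and 40.1 ± 19.6 CPM in young mutants at 25°C (-8.60 ± 0.75, adjusted p = 1.1e-09). *col-49* had 0.183 ± 0.162 CPM in old and 1146 ± 129 CPM in young mutants at 20°C, against 1.21 ± 1.03 CPM in old and 23.7 ± 9.47 CPM in young mutants at 25°C. For these genes the young groups differed far more than the old ones, in CPM. The collagens were not alike in this, since *col-139* had 2.07 ± 0.838 CPM in old and 1296 ± 487 CPM in young mutants at 20°C, against 2.44 ± 2.06 CPM in old and 1228 ± 405 CPM in young mutants at 25°C, and its interaction was not called (-0.25 ± 0.62, adjusted p = 0.73). The sign of that value turned without the old library numbered 0 at 25°C (0.21) and without the one numbered 2 (0.022). *col-179* was higher (1.23 ± 0.36, adjusted p = 0.004).

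Oocyte and eggshell genes were higher in this interaction in all 27 cases (25 by library size alone), with medians of 2.46 at 20°C and 0.42 at 25°C. *cpg-1* had 2036 ± 184 CPM in old and 254 ± 62.1 CPM in young mutants at 20°C, against 1975 ± 281 CPM in old and 1361 ± 431 CPM in young mutants at 25°C. The old groups were close and the young group at 20°C was the low one. Of 4 vitellogenins that could be tested, all 4 were higher, and *vit-5* had 8095 ± 499 CPM in old and 1749.9 ± 592 CPM in young mutants at 20°C, against 8389 ± 2029 CPM in old and 14254 ± 6637 CPM in young mutants at 25°C. Cell cycle genes were higher in 24 of 30 cases. Of 59 sperm family genes 4 were lower and 1 was higher, and 12 were lower by library size alone. The median age effect of that list was -3.06 at 20°C and -2.55 at 25°C. Of 25 genes named for spermatogenesis defects 12 were lower in the interaction, and 18 by library size alone. The 5 largest positive interactions were in *cyp-14A3*, *thn-1*, *cav-1*, *T05E12.3* and *clec-266*, and the 5 most negative in *pqn-2*, *F41E6.11*, *T06E4.9*, *abu-6* and *abu-7*. *cav-1*, a caveolin, had 142 ± 7.25 CPM in old and 0.867 ± 0.152 CPM in young mutants at 20°C, against 102 ± 5.04 CPM in old and 26.6 ± 3.12 CPM in young mutants at 25°C (5.40 ± 0.14, adjusted p = 1.2e-17). *abu-7* had 0.0140 ± 0.0193 CPM in old and 25.7 ± 12 CPM in young mutants at 20°C, against 0.0624 ± 0.0513 CPM in old and 0.204 ± 0.177 CPM in young mutants at 25°C, and only the young group at 20°C was above 1 CPM. For *abu-6* the interaction was no longer called without the old library numbered 0 at 25°C (-7.43, adjusted p = 0.196).

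**Figure D5:**
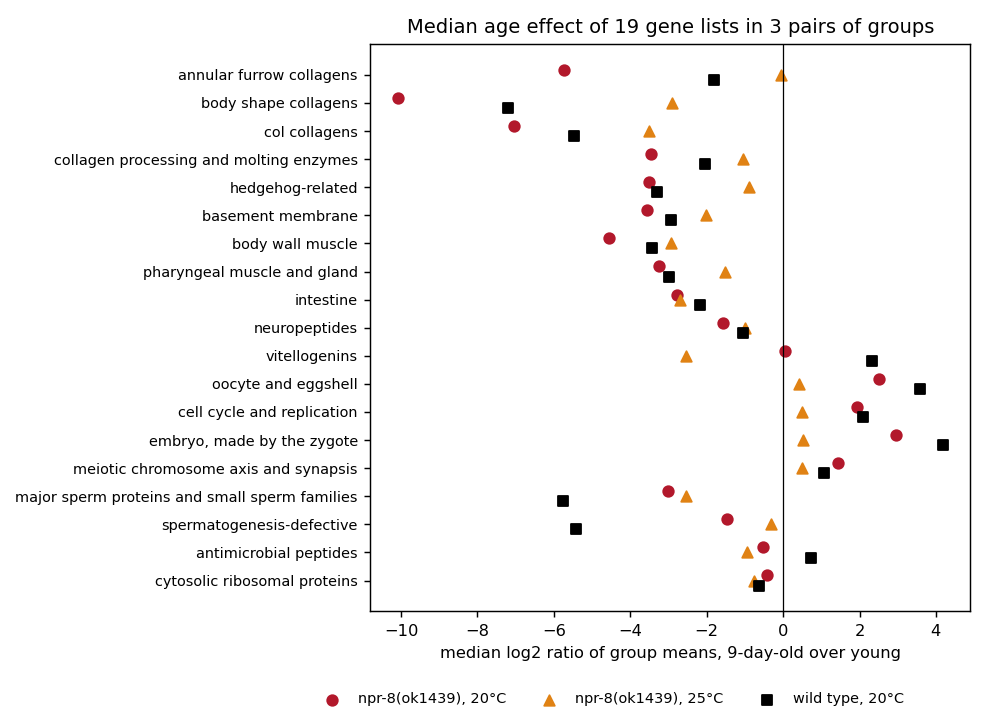
Median log2 ratio of 9-day-old over young group means for 19 gene lists in *npr-8(ok1439)* at 20°C (circles), *npr-8(ok1439)* at 25°C (triangles) and wild type at 20°C (squares), for the genes tested in each interaction (4 vitellogenins at 25°C). Furrow collagens lie at -5.74, -0.05 and -1.81 in the 3 pairs of groups, and spermatogenesis-defective genes at -1.47, -0.33 and -5.43, in the order mutant at 20°C, mutant at 25°C and wild type.

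Some genes could not be tied to transcripts of the old libraries and were not tested. These were 938 genes that averaged 10 fragments or more in old wild-type or young mutant libraries, and for 811 of them the authors' table gives a group FPKM of old mutants, scaled in another run. These are set side by side without a test. *col-175* had an FPKM of 0.159 in the old group and 1077 ± 159.6 in the 5 young libraries. *lev-11*, the tropomyosin of muscle, had 78.7 in the old group and 1387 ± 71.4 in the young libraries, and *bli-4*, a protease that cuts collagens, had 204 in the old group and 161 ± 5.88 in the young libraries. These 3 genes are named after their values were seen.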

How the data were processed

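RNA of whole *C. elegans* adults was sequenced from 40 libraries, of which 10 make the comparison of ages in *npr-8(ok1439)* at 20°C and 20 more enter the interactions with genotype and temperature. The libraries were polyadenylated and strand-specific (TruSeq). Per the labels' processing notes the authors used Bowtie2 2.3.4, Cufflinks 2.2.1 and Cuffdiff on ce10, whereas the methods of the study name HISAT2 as the aligner. The deposited expected counts are the fragments per gene and library that the authors' Cuffdiff run estimated before scaling, and they were rounded to whole numbers here. The FPKM values were made by the authors with Cuffdiff, scaled within each table of 2 groups, so old and young animals were scaled in separate runs. The authors' own fold changes and p-values were not used, nor were 10 further columns with values per sample.

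Fragments of the old libraries at 20°C in the mutant were given per transcript, those of all other libraries per gene. Transcripts were tied to genes by RefSeq accession or, failing that, by counts that add up to the gene in old wild-type libraries, within 1 fragment or 1%. This tied 39378 of 41560 genes, and 95.7% of genes with a mean of 10 fragments or more in old wild type and 94.1% of those in young mutants. Of 11890 genes tied by accession and checked, 99.4% gave the authors' FPKM within 2%, and 72 that did not were dropped. A further 132 matches by counts did not pass this check and were dropped. Over all tied genes, with those of few or no fragments, 99.8% of sums were whole numbers within 0.05, or slightly more for large sums. Matches by counts with more than 1 candidate were chosen by this same rule. Genes with a failed Cuffdiff status (105) were left out.

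Groups came from the sample labels. The tables number the libraries of a group 0 to 4, which is not tied to the numbers in the labels. Genes were filtered with filterByExpr (minimum count 10, total 15), scaled by TMM and tested with edgeR 4.0.16 (quasi-likelihood, two-sided, prior count 0.125) in R 4.3.3, with Benjamini-Hochberg adjustment over all genes tested. Interactions were fitted over 20 libraries of 4 groups. Alternatives were RLE or library size scaling, DESeq2 1.42.0, limma 3.58.1 on log2(FPKM + 1), no filter, genes tied by accession only, genes listed over at most 100000 bases, an adjusted p of 0.01, and leaving out each library. The fits were also run on simulated data in which few genes changed, evenly in both directions. Most genes were called here, more of them lower than higher, so that run does not check the scaling. Counts of a gene are uncertain by its number of fragments and by sharing with close copies.

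Named were *npr-8*, 5 of the collagens that the study examined (*col-49*, *col-77*, *col-139*, *col-179* and *rol-1*), the 6 largest rises and falls among genes with a mean of 10 CPM or more, a gene name and an interval of at most 100000 bases, the 5 largest interactions each way under the same conditions, and in each list the largest rise and fall (from 1 CPM) and the gene with most fragments. Lists and genes were chosen with earlier results of these data known. Some genes that this rule names are not described here, and *col-7* and *col-88* were added later. No sequences were used here.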

Additional observations from a re-analysis of the deposited data

Results flagged for a closer look

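In 21 of 264 groups of 5 libraries of a named gene, 1 library lay far from the other 4 by Dixon's test at 95%, and chance gives about 1 in 20. Among old mutants the highest library stood apart for *col-77* (0.9464 CPM), *mlt-9* (1.325 CPM), *spe-12* (1.893 CPM) and *lgg-1* (244.1 CPM). It did so at a level of few fragments for *K02E11.10* (0.1554 CPM), *grl-5* (0.2028 CPM), *abu-6* (0.0338 CPM), *fbxa-147* (0.03885 CPM), *pqn-2* (0.035 CPM) and *T06E4.9* (0.04139 CPM). The lowest old library stood apart for *C54C8.12* (9.275 CPM), *cyp-14A3* (8.155 CPM), *dpy-8* (0.35 CPM), *ssp-37* (2.065 CPM) and *Y1A5A.1* (7.42 CPM). Among young mutants the highest library stood apart for *bli-6* (1594 CPM), *fat-7* (109.3 CPM), *Y51H4A.22* (4.868 CPM), *spp-9* (0.08358 CPM) and *skr-9* (0.03434 CPM), and the lowest for *lin-26* (66.72 CPM).

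The age effect differed between the genotypes in 1700 genes on the higher and 1790 on the lower side by the interaction test of edgeR. The named genes with the largest interactions were *K09C6.2* (7.64), *Y51H4A.22* (7.27), *AC7.3* (6.88), *C45G9.4* (6.66) and *Y1A5A.1* (6.56) on the higher side, and *skr-14* (-6.90), *skr-7* (-6.54), *fbxc-28* (-5.86), *fkh-4* (-5.76) and *fkh-3* (-5.54) on the lower side, on the log2 scale.

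Between growth temperatures of the mutant it differed in 2579 genes on the higher and 3331 on the lower side. The largest values were in *cyp-14A3* (6.25), *thn-1* (5.91), *cav-1* (5.40), *T05E12.3* (5.35) and *clec-266* (5.28), and in *pqn-2* (-9.27), *F41E6.11* (-9.18), *T06E4.9* (-9.05), *abu-6* (-8.79) and *abu-7* (-8.72). Both interactions use the same old and young mutants at 20°C, so their values are not independent.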

How the results depend on the processing

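Over the named genes and the alternatives, 2312 values of the age effect in the mutant at 20°C kept their direction and side of the threshold, 20 were lost, 12 were gained and 1 reversed. The reversal was *vit-6*, not called in either case, at -0.11 without the young library numbered 3. In the genotype interaction all 424 values kept both. In the temperature interaction 395 did, *abu-6* was lost without the old library numbered 0 at 25°C, and *col-139*, not called, reversed to 0.21 without that library and 0.022 without the one numbered 2. With RLE size factors *atp-2* (-0.78), *ins-37* (-0.85), *vit-3* (-0.93) and *spe-15* (-0.99) were among those lost, and *pqn-59* (1.16) and *rpn-2* (1.02) among those gained.

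Leaving out each library gave 3974 to 4080 higher and 5670 to 5738 lower genes for age, 1664 to 1733 and 1748 to 1925 for genotype, and 1775 to 2673 and 3267 to 4194 for temperature. RLE size factors gave 4717 higher and 5045 lower genes for age and moved the median of all genes by 0.25. No filter on low counts gave 4851 and 6209, and genes tied by accession only 3335 and 4835. Without genes listed over more than 100000 bases, 4 insulin-like peptides and 60 C-type lectins and lysozymes were lower and 3 antimicrobial peptides higher, with fewer genes tested. With limma, 14 neuropeptide receptors and 14 cuticlins were lower. Depth limits genes with few fragments in a group, whose fold changes depend on the prior count. No paired analysis was possible because the columns carry table numbers that are not tied to the replicate numbers of the labels, so the replicate block was not run.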
